A study of Mus musculus with 2 samples.

Results

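The muscle actins, tropomyosins and myosin light chains were followed through 10 genes, Acta1, Actc1, Tpm1, Tpm2, Tpm3, Myl1, Myl2, Myl3, Myl4 and Mylpf. Members were the probe sets that the array annotation assigns to exactly one of these genes, which gave 23 of the 45101 probe sets on the array and 10 of 18193 genes with a probe set of their own. They were read in BALB/c fetal palate at E18.5 (E for embryonic day). There were 2 Affymetrix arrays, 1 of palate labelled as null for both Myf5 and MyoD (gene symbol Myod1) and 1 of wild-type palate. Both samples share the BALB/c background, and the labels do not say which parts of Myf5 and Myod1 were removed, nor how many fetuses a sample holds. The values are MAS5 signals, linear brightness units computed by the authors, rescaled here by factors near 1 (1.03 for the array labelled double null and 0.974 for wild type).

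In striated muscle, myosin heads pull on thin filaments built of actin. Tropomyosin lies along the actin and, together with troponin, opens or blocks the sites that myosin binds. Each myosin head carries an essential and a regulatory light chain on its lever arm. Myf5 and MyoD are the transcription factors that commit cells to skeletal muscle, and in the fetal palate that muscle lies in and around the soft palate. Several members also serve other tissues: Actc1, Myl2, Myl3 and Myl4 are used by the heart, and Tpm1 and Tpm3 give rise to cytoskeletal isoforms in most cells.

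All but one of the 10 genes read lower on the array labelled double null, by modest amounts. The median log2 ratio (array labelled double null over wild type) was -0.55, or 1.46-fold lower, against a median of 0.07 over the 11238 genes counted as measured. None of the 10 was at least 2-fold lower, a size reached by 4.22% of all measured genes, and none was at least 2-fold higher (3.51% of measured genes). At 1.5-fold, 4 of the 10 were lower (Myl1, Acta1, Tpm2 and Myl2), against 11.7% of measured genes. Counted by sign, 9 of 10 were below 0, against 43.7% of measured genes. Myl2, which is in both counts, was bright enough to be measured only on the wild-type array, so it could only read lower. Tpm3 was the gene above 0, and its sign turned under 3 other array scalings and quantile normalization. With 1 array per genotype there is no replicate check and no p-value. Fewer muscle cells and less RNA per muscle cell cannot be told apart in whole palate, and differences between animals or dissections cannot be told apart from genotype.

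Signals of the targeted genes were close on the arrays. Myod1 had a signal of 1663 on the array labelled double null and 1938 on the wild-type array in its brighter probe set. Its other probe set had 305 on the array labelled double null and 282 in wild type. The only Myf5 probe set had 531 on the array labelled double null and 517 in wild type. Both of these lie below the level of 658 that a measured gene reaches. The sources used here do not say whether these probe sets lie within the removed parts, so they do not check the genotype. For that reason the mutant sample is named by its label throughout.

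Measured genes are those with a signal of at least 658 on the brighter array, and all 10 members reached it. Of the 23 probe sets 19 passed and 4 did not. Myl2 and a dim Tpm3 probe set passed only through the wild-type array, where they are brighter, so their ratios could only fall below 0. The sole error that these arrays hold is the spread between probe sets of one gene, a pooled SD of 0.51 on the log2 scale from 10190 probe sets of 4030 genes. It takes in effects of probe and isoform, and none of the differences between animals. By that measure 6 of the 10 members (Myl1, Acta1, Tpm2, Myl2, Mylpf and Tpm1) had a ratio larger than 1 SD. The other 4 (Myl4, Actc1, Myl3 and Tpm3) did not. Mylpf (-0.55) and Tpm1 (-0.54) passed it narrowly. The share of all measured genes beyond 1 SD was not computed, so this count has no background beside it.

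**Figure D1:**
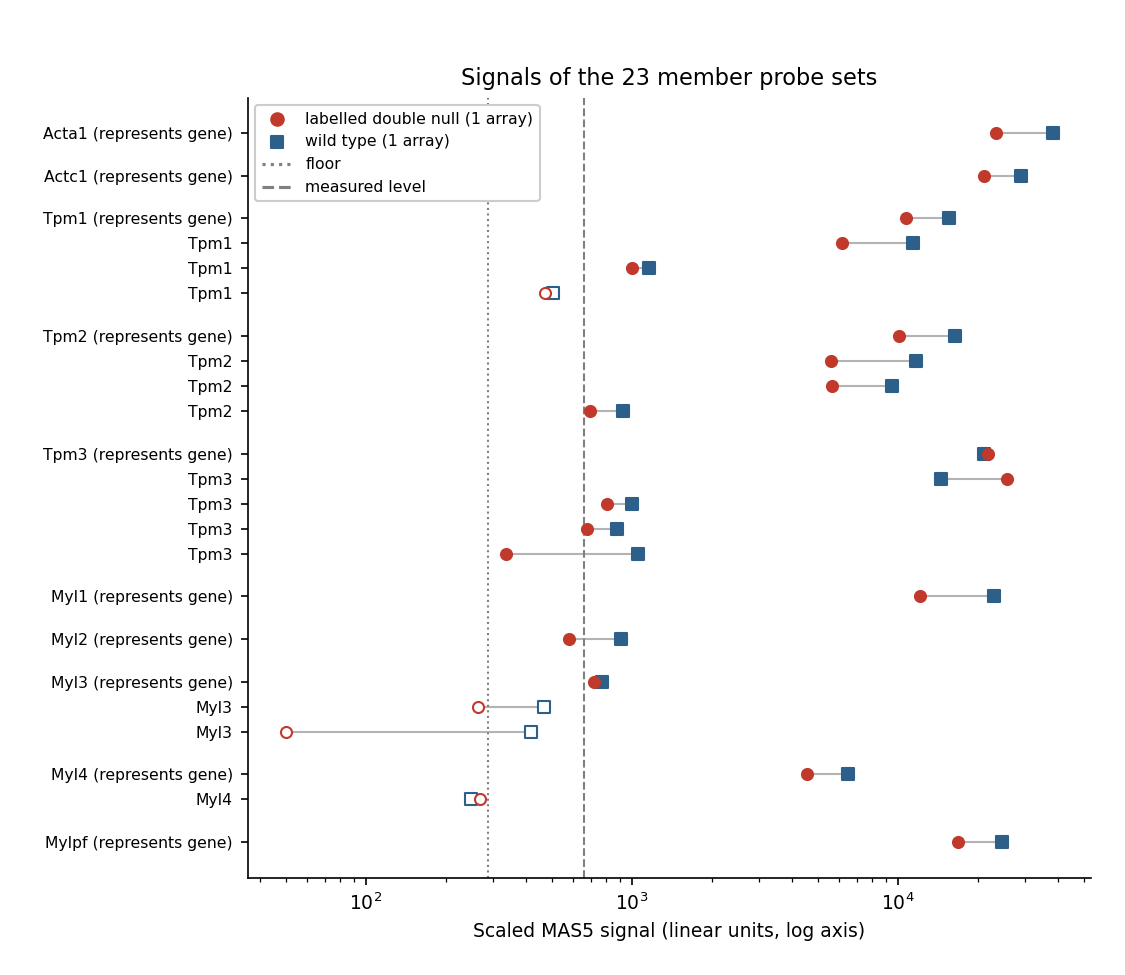
Scaled MAS5 signal (log axis) of the 23 member probe sets, with circles for the array labelled double null and squares for the wild-type array. Open symbols did not reach the measured level of 658 (dashed line), and the dotted line is the floor of 287. Circles lie left of squares except in the 2 brightest Tpm3 probe sets and in a dim Myl4 probe set that is under the floor on both arrays.

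Because MyoD and Myf5 bind E-boxes, the promoters of the members are shown before their values. Windows of 250 bases before each start were read from RefSeq sequences of build GRCm38.p6, in which all 10 members were found with 12 windows in all. Capitals mark the E-box CAGCTG (which MyoD binds well) and the CArG box, the site of serum response factor, which drives actin genes. Acta1, Tpm2, Myl1 and Mylpf are shown as examples that hold the first. Actc1 is an example with a CArG box alone, and Myl4 an example with neither. Not printed are Tpm3 and Myl2, which also hold CAGCTG, Myl3, which also holds a CArG box alone, and Tpm1, which holds neither.
Acta1 (GRCm38.p6 chr8:123894776-123895025, minus strand): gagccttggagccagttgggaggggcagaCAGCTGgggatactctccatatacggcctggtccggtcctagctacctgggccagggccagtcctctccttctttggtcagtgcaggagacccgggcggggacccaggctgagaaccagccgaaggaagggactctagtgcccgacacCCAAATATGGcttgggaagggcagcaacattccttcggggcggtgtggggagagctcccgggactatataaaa
Actc1 (GRCm38.p6 chr2:114052876-114053125, minus strand): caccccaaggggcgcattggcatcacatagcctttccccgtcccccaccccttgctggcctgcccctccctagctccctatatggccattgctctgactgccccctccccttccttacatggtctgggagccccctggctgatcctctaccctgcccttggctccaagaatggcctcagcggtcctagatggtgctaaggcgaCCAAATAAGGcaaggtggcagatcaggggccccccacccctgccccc
Tpm2 (GRCm38.p6 chr4:43523555-43523804, minus strand): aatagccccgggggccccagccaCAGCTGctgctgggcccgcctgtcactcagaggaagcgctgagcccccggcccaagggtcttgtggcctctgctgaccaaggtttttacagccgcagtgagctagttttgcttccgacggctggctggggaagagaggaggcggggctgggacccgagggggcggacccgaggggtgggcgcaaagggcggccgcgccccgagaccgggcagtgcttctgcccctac
Myl1 (GRCm38.p6 chr1:66945057-66945306, minus strand): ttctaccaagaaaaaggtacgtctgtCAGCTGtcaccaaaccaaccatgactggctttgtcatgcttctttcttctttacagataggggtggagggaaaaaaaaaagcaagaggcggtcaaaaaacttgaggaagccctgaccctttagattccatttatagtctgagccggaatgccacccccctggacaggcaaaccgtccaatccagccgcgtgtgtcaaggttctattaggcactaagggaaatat
Mylpf (GRCm38.p6 chr7:127211358-127211607, plus strand): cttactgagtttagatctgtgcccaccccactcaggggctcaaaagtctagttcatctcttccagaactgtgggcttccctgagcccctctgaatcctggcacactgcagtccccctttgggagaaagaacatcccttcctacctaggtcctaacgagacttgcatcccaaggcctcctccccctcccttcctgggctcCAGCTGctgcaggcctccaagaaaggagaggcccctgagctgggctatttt
Myl4 (GRCm38.p6 chr11:104550413-104550662, plus strand): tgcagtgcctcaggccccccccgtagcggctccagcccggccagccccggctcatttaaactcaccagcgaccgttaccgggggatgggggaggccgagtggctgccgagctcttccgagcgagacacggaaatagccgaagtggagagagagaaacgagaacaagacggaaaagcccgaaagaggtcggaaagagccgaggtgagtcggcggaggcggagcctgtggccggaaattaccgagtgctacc

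The general E-box CANNTG, searched on both strands and including CAGCTG, was found in 8 of the 10 members and in 10 of 12 windows, beside 66.2% of all 32851 windows. CAGCTG was found in 6 members (Acta1, Tpm2, Tpm3, Myl1, Myl2 and Mylpf) and 6 of 12 windows, beside 13.0% of all windows. In Acta1 it began 221 bases before the start, in Tpm2 227, in Myl1 224 and in Mylpf 51. A CArG box was found in Acta1 (73 bases before the start), Actc1 (47) and Myl3 (85), that is in 3 of 12 windows beside 1.47% of all windows. The MCAT motif CATTCC, a site of TEAD factors in muscle genes, was found in Acta1, Tpm1, Myl1 and Myl3, beside 12.6% of all windows. TATAAA was found in Acta1, Myl1 and Myl2, beside 12.4%. No member window held the MEF2 box, which 2.92% of all windows held. These matches describe letters in a window and not bound sites. In the RefSeq gene table the annotated genes Myl1, Mylpf and Myl4 extend upstream of the windows printed here, which therefore do not cover every annotated start of these genes.

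Ratios of members with and without CAGCTG overlapped. The 6 with it ran from -0.93 to 0.045 on the log2 scale with a median of -0.67, and the 4 without it (Actc1, Tpm1, Myl3 and Myl4) ran from -0.54 to -0.10 with a median of -0.48. This grouping was chosen after the values were seen.

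Both striated actins remained bright and were lower on the array labelled double null. Acta1, the skeletal alpha-actin that fills the thin filament of mature skeletal muscle, had a signal of 23429.8 on the array labelled double null and 38283 on the wild-type array. That left 61.2% of the wild-type signal, a log2 ratio of -0.71. Actc1, the cardiac alpha-actin that developing skeletal muscle also makes, had 21111 on the array labelled double null and 28966 in wild type, which left 72.9% (log2 ratio -0.46). The actins differed from each other by less than the SD between probe sets. Each has 1 probe set, and how far each probe set reads the other gene was not tested.

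Among the tropomyosins, Tpm2 and Tpm1 were lower in every measured probe set. Tpm2, the beta-tropomyosin of skeletal muscle, had a signal of 10124 on the array labelled double null and 16445 in wild type (log2 ratio -0.70). Its other probe sets had 5625, 5658 and 694 on the array labelled double null, against 11724, 9529.9 and 923 in wild type. All 4 were lower, with ratios from -1.06 to -0.41, and the lowest of them passed 2-fold. That one carries the _x suffix, and how far it reads other transcripts was not tested. Tpm1, the alpha-tropomyosin of fast muscle and heart, had 10734 on the array labelled double null and 15619 in wild type (log2 ratio -0.54). Its other measured probe sets had 6169 and 1003 on the array labelled double null, against 11398 and 1155 in wild type (-0.89 and -0.20). A dim Tpm1 probe set below the measured level gave 469 on the array labelled double null and 506 in wild type. Tpm1 and Tpm2 thus kept one sign, and their probe sets ran over 0.68 and 0.65 log2 units.

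The probe sets of Tpm3 went in opposite directions. Tpm3 encodes the slow-muscle alpha-tropomyosin and, through other exons and another start, cytoskeletal tropomyosins found in most cells. Its representing probe set was level, with 21786 on the array labelled double null and 21124 in wild type (log2 ratio 0.045). The other bright one, which carries the _x suffix, was 1.76-fold higher, with 25675 on the array labelled double null and 14581 in wild type. How far it reads other transcripts was not tested. The dimmer ones were lower. One of them had 337 on the array labelled double null and 1059 in wild type, 3.15-fold lower (log2 ratio -1.65), and it is the one that passed only through the wild-type array. The others had 677 and 807 on the array labelled double null, against 881 and 1003 in wild type (-0.38 and -0.31). The 4 that reached the measured level on both arrays had ratios on either side of 0, with an SD of 0.55 and a range of 1.20 log2 units, beside 0.51 for the pooled SD. With the fifth the SD was 0.89 and the range 2.47. The sources used here do not say which isoform each probe set reads. The gene's value therefore depends on the probe set: the mean over all 5 was -0.30, the mean over those 4 was 0.042, and the one without a suffix letter gave -0.31.

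**Figure D2:**
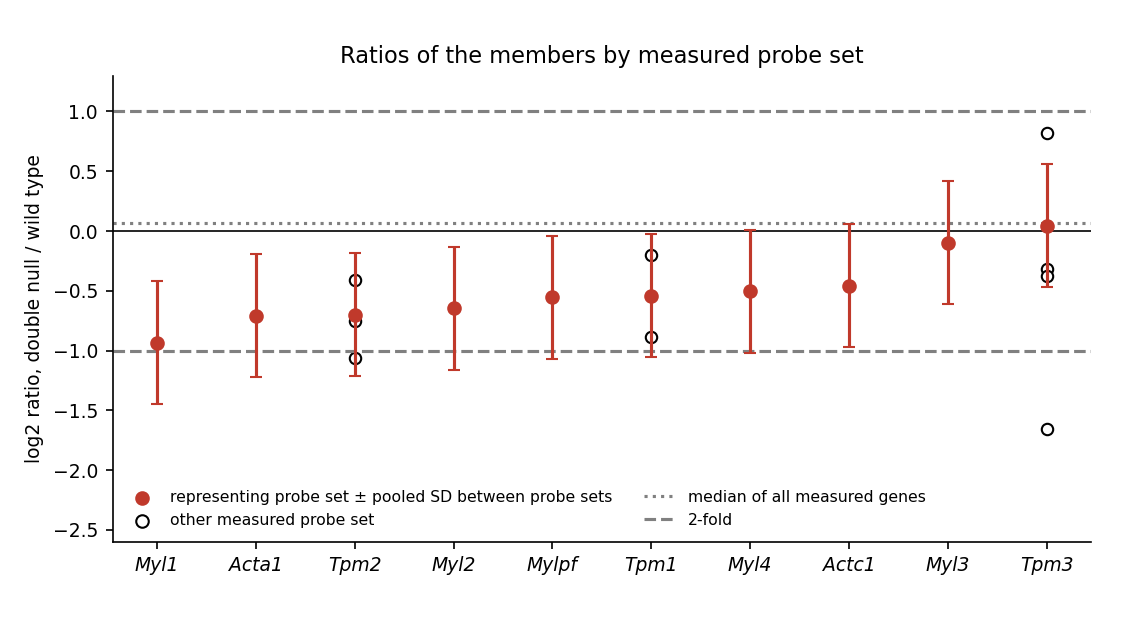
Log2 ratio of the array labelled double null over wild type for each member, ordered from lowest to highest. Filled points are the representing probe sets with the pooled SD between probe sets of one gene (0.51), open points are other measured probe sets, the dotted line is the median of all measured genes and dashed lines are 2-fold. Representing values run from -0.93 (Myl1) to 0.045 (Tpm3, whose sign turns under other scalings), and the 5 Tpm3 points spread most widely.

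Of the essential light chains, Myl1 was lowest of all 10 members and Myl3 nearly level. Myl1, the essential light chain of fast skeletal muscle, had a signal of 12071 on the array labelled double null and 23043 in wild type. Its ratio of -0.93 left 52.4% of the wild-type signal, and 4.95% of measured genes had a lower ratio. Its fold was 1.91, short of 2-fold, and it passed 2-fold with the deposited scaling, quantile normalization and either scaling on reference genes. Myl4, the essential light chain of embryonic skeletal muscle and of the atrium, had 4564 on the array labelled double null and 6474 in wild type, a ratio of -0.50. Its second probe set was under the floor on both arrays. Myl3, the essential light chain of slow muscle and ventricle, had 724 on the array labelled double null and 775 in wild type, a ratio of -0.10. Its dimmer probe sets, below the measured level, gave 264 on the array labelled double null against 466 in wild type (at least 1.63-fold lower) and 50.01 on the array labelled double null against 416 in wild type (at least 1.45-fold lower). All Myl3 signals lay near or under the level of 658, so the gene is measured weakly.

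Both regulatory light chains were lower by similar ratios. Mylpf, the fast skeletal form, had a signal of 16804 on the array labelled double null and 24660.1 in wild type, a ratio of -0.55 that left 68.1%. Myl2, the form of slow muscle and ventricle, had 581 on the array labelled double null and 909 in wild type, a ratio of -0.64 that left 64.0%. Each rests on 1 probe set, and the Myl2 ratio shrank to -0.46 with the floor at the 60th percentile, which lies above its signal on the array labelled double null.

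Ordered by ratio, the members ran Myl1, Acta1, Tpm2, Myl2, Mylpf, Tpm1, Myl4, Actc1, Myl3 and Tpm3. The largest step between neighbours was 0.36, from Actc1 to Myl3, smaller than the SD of 0.51, so no member stood apart from the next. Fast and slow light chains overlapped as reported, but through Myl2 alone. The fast light chains Myl1 and Mylpf had -0.93 and -0.55, and the slow and cardiac forms Myl3 and Myl2 had -0.10 and -0.64. Myl2 reached the measured level only in wild type, so it could only read lower. Its order with Mylpf turned with quantile normalization (Myl2 -0.63, Mylpf -0.71). It also turned with the higher alternative floor (Myl2 -0.46, Mylpf -0.55). Whether fast and slow light chains separate therefore cannot be decided from these values. Actc1 and Myl4, forms typical of developing muscle, had -0.46 and -0.50, beside -0.71 for the mature actin Acta1.

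**Figure D3:**
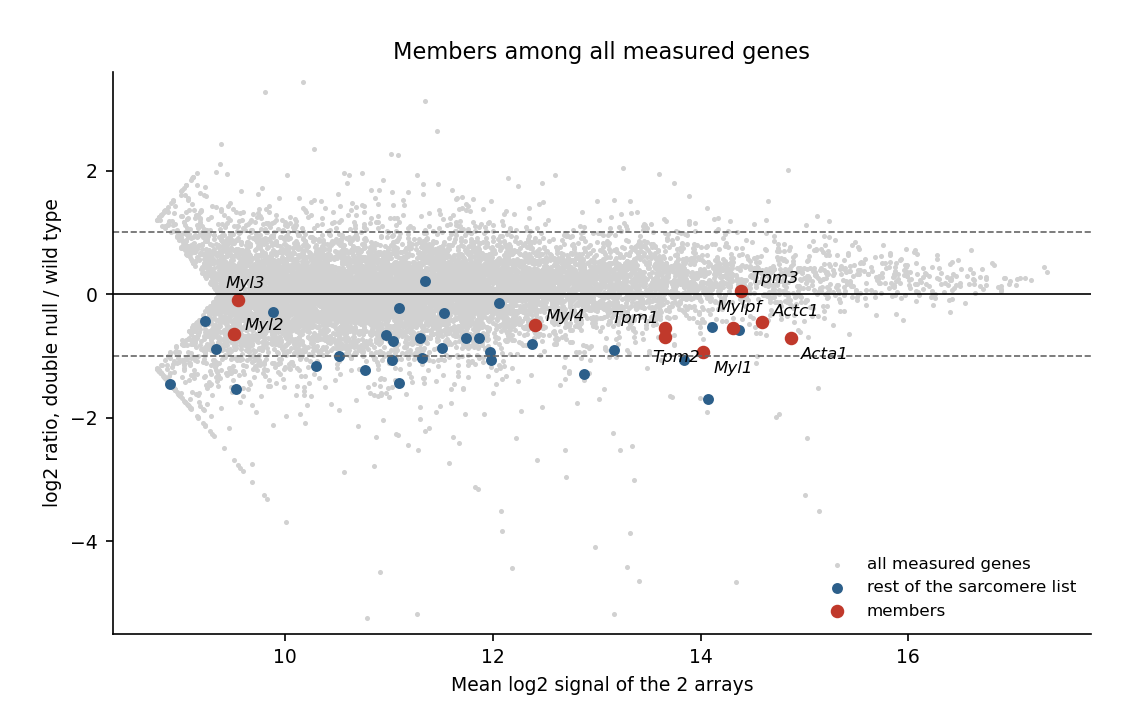
Log2 ratio of the array labelled double null over wild type against the mean log2 signal of the 2 arrays for 11238 measured genes. Members (red, named) lie between -0.93 and 0.045, and the 30 measured genes of the rest of the sarcomere (blue) between -1.69 and 0.22.

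The rest of the sarcomere was lower than the members on the same arrays. In a list of 41 other sarcomere genes, 30 were measured. Of these 29 were below 0, 11 passed 2-fold on the lower side and none on the higher. Des, Mybph, Actn3 and Tcap, 4 of the 30, reached the measured level only in wild type and so could only read lower, and 2 of them (Des and Mybph) are among the 11. Their median log2 ratio was -0.88, beside -0.55 for the 10 members. The members' partners on the thin filament, 7 measured troponins, had a median of -1.03, and 4 measured myosin heavy chains, the partners of the light chains, had -1.11 (these subsets were chosen after the values were seen). Tnnc2, the fast troponin C, was the lowest, with 9596 on the array labelled double null and 31028 in wild type (log2 ratio -1.69). Des had -1.53 and Tnni1 -1.44, Mybph was at least 2.73-fold lower, and Nebl, a nebulin relative, went furthest the other way at 0.22. With 1 array per genotype the difference between these medians was not tested.

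Genes that assemble thin filaments or regulate light chains were mixed. Of 18 listed, 10 were measured, 6 were below 0 and none passed 2-fold, with a median of -0.25. With reference genes scaled by median signal, 9 of 11 measured were below 0, with a median of -0.61. The count stayed at 6 of 10 with the deposited scaling, quantile normalization and reference genes scaled by median ratio. Unc45b, a myosin chaperone, had -0.86, Klhl41, a sarcomere-stabilising protein, -0.78, Mef2d, a muscle transcription factor, -0.70, and Tmod1, which caps thin filaments, -0.50. Cap2, an actin-binding protein, was furthest the other way at 0.39. Srf, the factor of the CArG box and chosen after its values were seen, had 3886 on the array labelled double null and 5139 in wild type (-0.40).

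Relatives of the members outside the striated sarcomere went in both directions. All 12 listed had a probe set, 9 were measured and 5 of these were below 0, with a median of -0.09. That median was -0.25 with quantile normalization, -0.29 and -0.23 with reference genes scaled by median signal and by median ratio, and turned to 0.032 with the filter at the 75th percentile. The cytoskeletal actins Actb and Actg1 had ratios of 0.03 and 0.18, and the cytoskeletal tropomyosin Tpm4 -0.09. Actb turned to -0.043 with the deposited scaling, -0.16 with quantile normalization, and -0.18 and -0.11 with reference genes scaled by median signal and by median ratio. Actg1 turned to -0.053 with quantile normalization and -0.025 with reference genes scaled by median signal. The non-muscle regulatory light chains Myl12a and Myl12b had 0.34 and 0.29, Myl6, the non-muscle and smooth muscle essential light chain, -0.53 and the smooth muscle form Myl9 -0.44. Of the smooth muscle actins, Acta2 had 26507 on the array labelled double null and 29398 in wild type (-0.15), and Actg2, which reached the measured level only in wild type, had -0.86. The other 7 kept their sign under the 4 alternative scalings, although Actg2 passed 2-fold lower with either scaling on reference genes. Myl6b, Myl7 and Myl10 were below the measured level.

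**Figure D4:**
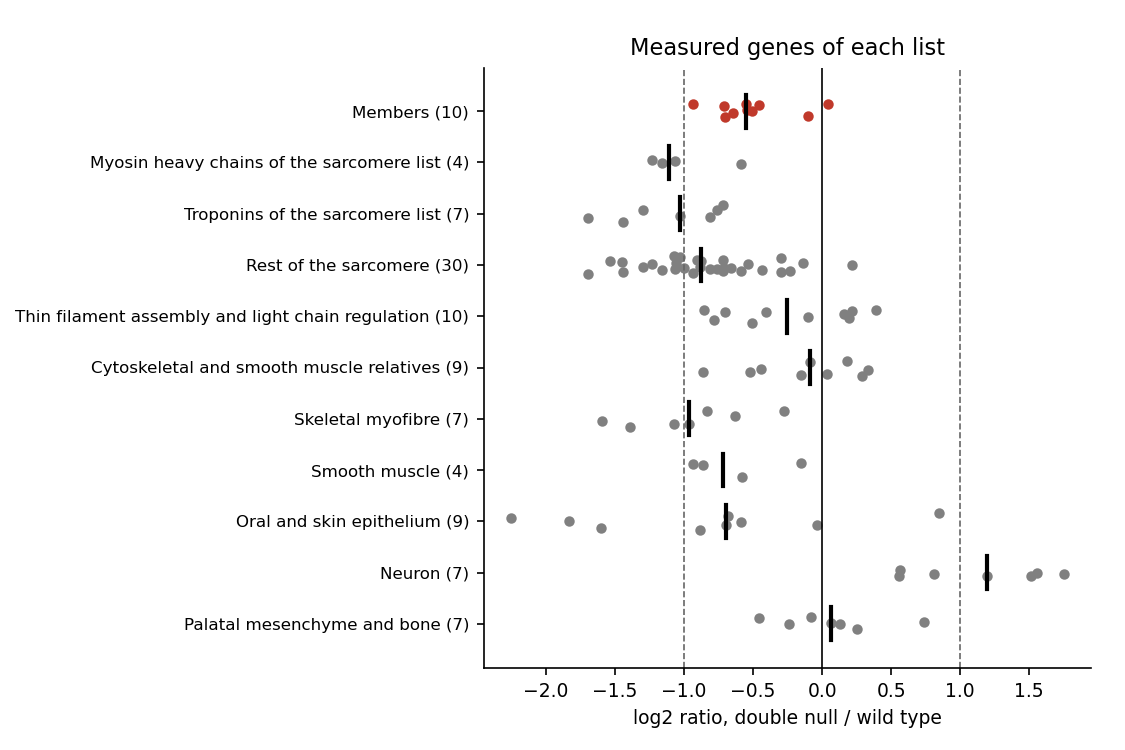
Log2 ratio of the array labelled double null over wild type for the measured genes of each list (number in brackets), one point per gene and a black bar at the median; dashed lines are 2-fold. The members' median is -0.55, that of the rest of the sarcomere -0.88, that of the cytoskeletal and smooth muscle relatives -0.09 and that of the neuron markers 1.19.

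Markers of the cell types that also use these genes were read on the same arrays. Cardiac markers were nearly absent: of 8 with a probe set, Sln alone was measured (1229 on the array labelled double null and 1932 in wild type), and sarcolipin is also made by skeletal muscle. The atrial light chain Myl7 had 34.6 on the array labelled double null and 30.6 in wild type, and Myh6 had 258 on the array labelled double null and 243 in wild type, both under the floor on both arrays. No measured marker in these lists had a log2 ratio of exactly 0. Markers under the floor on both arrays, such as Myl7 and Myh6, read 0 because both signals were raised to the floor. Summed signals below run over all listed genes with a probe set, measured or not. Skeletal myofibre markers were lower, with 7 of 7 measured below 0 (11 listed), a median of -0.97 and a summed signal of 21557 on the array labelled double null and 41812 in wild type. Pgam2 (-1.60), Ckm (-1.39), Casq1 (-1.07) and Ryr1 (-0.97) led them, and Cox6a2 was nearest 0 at -0.28. Below the measured level, Ampd1 and Pvalb were also lower, and Cacna1s was under the floor on both arrays. Mb, likewise unmeasured, went the other way, with 349 on the array labelled double null and 54.9 in wild type. Smooth muscle markers were below 0 in 4 of 4 measured (8 listed), with a median of -0.72 beside the members' -0.55. Actg2, which counts towards that median, reached the measured level only in wild type and so could only read lower. Tagln had -0.94, Actg2 -0.86, Synpo2 -0.58 and Acta2 -0.15. Their summed signal was 30025 on the array labelled double null and 34339 in wild type, most of it from Acta2. Of the unmeasured ones, Cnn1 had 399 on the array labelled double null and 288 in wild type, and Myh11 had 485 on the array labelled double null and 221 in wild type.

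Other tissues also differed between the samples. Epithelial markers were below 0 in 8 of 9, with a median of -0.70 and a summed signal of 92084 on the array labelled double null and 127528 in wild type. The keratins and loricrin were lower, led by Krt4 (-2.25), Lor (-1.83), Krt13 (-1.60) and Krt10 (-0.88). Of the general epithelial adhesion genes, Cdh1 had -0.04, and Epcam was 1.80-fold higher, with 31018 on the array labelled double null and 17229 in wild type. Neuron markers were above 0 in 7 of 7, with a median of 1.19 and a summed signal of 108437 on the array labelled double null and 46523 in wild type. Elavl4 (1.75), Snap25 (1.56), Nefl (1.51) and Stmn2 (1.19) led them, and Tubb3 was nearest 0 at 0.56. Markers of palatal mesenchyme and bone were mixed, with 3 of 7 measured below 0 as reported and 4 or 5 of 7 under the other scalings. Their sums were 421781 on the array labelled double null and 363681 in wild type, with Col1a1 at 0.74, Col1a2 at 0.25, Prrx1 at -0.24 and Sp7 at -0.46. Of the 13 reference genes with a probe set, Eef2 stood lowest at -1.52, and Ywhaz (0.57), Sdha (0.47) and Pgk1 (0.24) were highest. The part that the cell make-up of the samples has in the members' ratios was not tested.

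Subtracting the median of all measured genes cancels any scaling that multiplies a whole array by a constant. The deposited scaling and both scalings on reference genes are of that kind, so their near-equal values after subtraction are built in. Only small shifts in the floor and in the set of measured genes remain between them. After the subtraction the members' median was -0.62, and it stayed between -0.68 and -0.54 under 12 alternatives. Scaling on reference genes, by their median signal or their median ratio, moved the median of all genes by -0.22 and -0.15. Relative to that median Tpm3 then lay at -0.014 and -0.018 and Myl1 at -0.99 under both. Over all 12 alternatives Tpm3 lay between -0.37 (probe sets without a suffix letter) and 0.045 (no filter), and Myl1 between -1.10 (quantile normalization) and -0.93 (no filter).

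**Figure D5:**
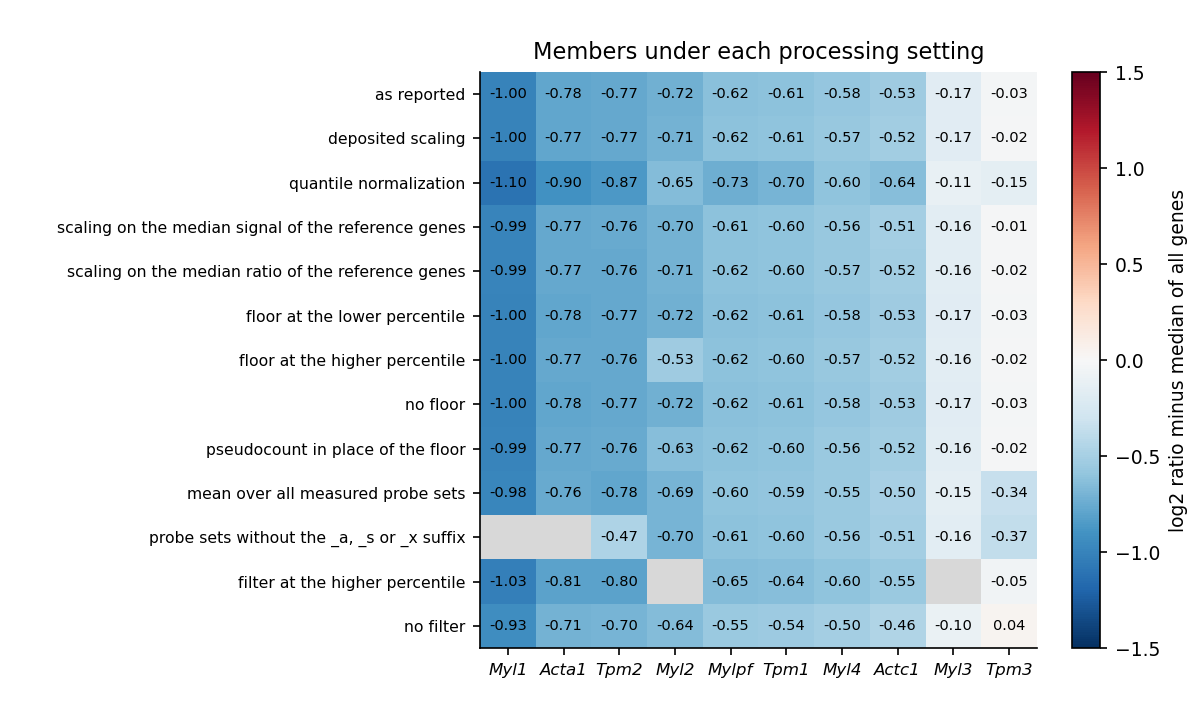
Log2 ratio of each member (columns, lowest to highest) minus the median of all measured genes under the reported processing and 12 alternatives (rows); grey cells have no measured probe set. Tpm3 changes most between rows, from -0.37 to 0.045, and 8 members lie below -0.4 in every row where they are measured.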

How the data were processed

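Total RNA of fetal palate (6 µg per sample) was labelled as biotinylated cRNA and hybridised to 1 array per genotype, per the labels' protocols. The deposited values are MAS5 signal intensities on a linear scale, according to the authors, per the submitters' processing notes (tool version not given in the sources used here), and detection calls were not used here. Signals ran from 0.98 to 193166 on the array labelled double null and from 1.26 to 171378 in wild type. The number of arrays limits the precision.

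The members and lists were chosen with earlier results of these data known. The platform annotation named the probe sets: 34945 had 1 gene, 932 several and 9160 none listed, beside 64 controls that were left out. Arrays were scaled to the median of probe sets in the upper 50 percent of both, and signals under the 40th percentile (287) were raised to it as a floor before taking log2. A probe set was measured at or above the 60th percentile (658) on its brighter array. A gene was represented by its brightest probe set. A ratio with 1 array under the floor is a bound, written "at least". All members were named, as were all measured relatives and, of each other gene list, up to 4 measured genes with the largest absolute ratio and the one furthest the other way; other named genes are said to be chosen after their values were seen or serve as markers. Sequences are RefSeq's, from GRCm38.p6. The steps were tested on simulated data. Python 3.11.15, numpy 2.4.6, pandas 2.3.3 and matplotlib 3.10.9 were used.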

Additional observations from a re-analysis of the deposited data

How the results depend on the processing

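The median log2 ratio over the members kept its sign under all 13 alternatives, from -0.76 to -0.48, including one without Tpm3 that was chosen after seeing the data. The count of members at least 2-fold lower was 0 of 10 as reported and 1 (Myl1) with the deposited scaling, with quantile normalization and with either scaling on reference genes (by median signal or by median ratio); it was 4 at 1.5-fold. In the sarcomere list the count was 11 of 30 as reported, 17 with reference genes scaled by median signal, 22 at 1.5-fold and 1 at 3-fold. Tpm3 turned from 0.045 to -0.031 with the deposited scaling, -0.13 with quantile normalization, -0.16 and -0.10 with reference genes scaled by median signal and by median ratio, -0.30 with the mean over all measured probe sets and -0.31 with probe sets without the _a, _s or _x suffix. Minus the median of all measured genes it was -0.027 as reported and 0.045 with no filter. The median of the cytoskeletal and smooth muscle relatives ran from -0.29 (reference genes scaled by median signal) to 0.032 (the filter at the 75th percentile, which left 7 of its 9 genes), beside -0.09 as reported. Acta1 and Myl1 have no probe set without a suffix letter, and Myl2 and Myl3 fell below the filter at the 75th percentile. No paired analysis was possible because there is 1 array per genotype. Signals near the floor limit what can be said of Myl2 and Myl3.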
